A study of Rattus norvegicus with 19 samples.

Results

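Nqo1, Hmox1, Gclc, Gclm, Srxn1, Txnrd1, Sod2, Cat, Gpx1 and Gpx3 are antioxidant genes, most of them known targets of the transcription factor NRF2. They were taken by symbol from the count files, where all 10 were found among 17455 gene symbols, and all 10 were among the 12388 genes with enough counts to be tested. RNA of rat left ventricle was sequenced in 19 libraries, 1 per heart. Sprague-Dawley rats were 24 weeks old at the start. The groups control 5w and control 9w (3 libraries each) received neither L-NAME nor high-fat diet and were taken at weeks 5 and 9. HFpEF rats (3 libraries, week 5) drank water with 0.5 g/L of L-NAME, which blocks nitric oxide synthesis, and ate a diet drawing 60% of its calories from fat for 5 weeks, a double stress that models heart failure with preserved ejection fraction. At week 9, after 4 weeks of daily gavage in such rats, the groups were untreated (vehicle PBS, 3 libraries), EMPA (empagliflozin, an SGLT2 inhibitor, 0.35 g/kg per day, 2 libraries), PFD (pirfenidone, an antifibrotic drug, 0.3 g/kg per day, 2 libraries) and EMPA + PFD (both, 3 libraries). Total counts ran from 7430539 to 13017754 per library, with a median of 9951011.

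NRF2, encoded by Nfe2l2, is held in the cytoplasm and marked for degradation by KEAP1. When electrophiles or peroxides modify KEAP1, NRF2 accumulates, pairs with small MAF proteins and binds antioxidant response elements near genes for glutathione synthesis, thioredoxin recycling, quinone reduction and heme breakdown, while BACH1 represses part of the same genes. In the heart, cardiomyocytes are rich in mitochondria, where superoxide arises during respiration and is turned into hydrogen peroxide, which catalase, glutathione peroxidases and peroxiredoxins remove.

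Several libraries stood apart in ways the group labels do not give. All libraries are labelled male, although the treatment text speaks of both sexes. The Y-linked gene Eif2s3y was counted 613 to 1321 times in 12 libraries and never in 7, namely HFpEF replicates 1 and 3 and all untreated and PFD libraries, where 3 counts would be 0.215 to 0.329 CPM (counts scaled to a common library size). LOC100911498 had 13032 to 27077 counts in those 7 libraries and 1 to 12 in the other 12. A histocompatibility gene, RT1-CE16, had 308 to 922 counts in 11 libraries and at most 3 in the 8 others, which are those of control 5w, of HFpEF and of EMPA. Thus every untreated library lacked Eif2s3y and every EMPA + PFD and control 9w library had it, so that this split and the treatment cannot be told apart in those comparisons.

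Marker genes of the tissue also varied within groups. The 9 cardiomyocyte markers found, led by Myh6, summed to 81986, 33669 and 37707 CPM in control 5w, to 10839.5, 20712 and 32161 in HFpEF, and to 33201, 39252 and 35719.9 in control 9w. Their sum was 63609, 17707 and 52043 CPM in untreated, 42110 and 32582 in EMPA, 60038 and 67409 in PFD, and 62614, 88276 and 74198 in EMPA + PFD. Untreated replicate 2 and HFpEF replicate 1 were thus low, and the EMPA + PFD libraries were among the highest. All 9 markers were above 3 counts somewhere in the series. The 5 atrial markers, led by Nppa, summed to 23246 CPM in control 9w replicate 3 and to 14873 in untreated replicate 2, against 78.1 in untreated replicate 1 and 513 in untreated replicate 3, although the tissue is given as left ventricle.

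Markers of other cells moved between hearts as well. Fibroblast markers (9 genes, Col3a1 the most abundant) summed to 45572 and 36992 CPM in control 5w replicates 2 and 3 but to 4672 in replicate 1. They lay between 10032 and 17869 in HFpEF and between 2174 and 8740 in the week 9 libraries. Macrophage and myeloid markers (12 genes, Lyz2 the most abundant) had their highest sum in HFpEF replicate 1, with 3652 CPM, and their lowest in EMPA + PFD replicate 1, with 394. Red cell markers (8 genes, Hbb the most abundant, Hba-a2 at 3 counts or fewer in every library) ran from 143 to 3973 CPM, adipocyte markers (7 genes, led by Fabp4) from 556 to 3660.1, and endothelial markers (9 genes, also led by Fabp4) from 2017 to 7707. Fabp4 stands in both lists and made up most of every adipocyte sum, with 3652 of 3660.1 CPM in control 9w replicate 2. The adipocyte range thus cannot be told apart from endothelial Fabp4 and is not read as fat content. Smooth muscle markers (6 genes, led by Rgs5) ran from 668 to 2717 CPM and skeletal muscle markers (6 genes, led by Acta1) from 583 to 6729. Acta1 or Ckm was the most abundant of the skeletal muscle list in every library. Its sum was lowest in untreated replicate 2 and highest in control 5w replicate 1, where cardiomyocyte sums were 17707 and 81986 CPM. It is not read as skeletal muscle content. Kidney and liver markers (7 genes, led by Cyp2e1, with Umod and Slc12a1 at 3 counts or fewer everywhere) did not pass 100.5 CPM in sum. In bulk RNA, fewer cells of a type and less RNA per cell cannot be told apart, and the part of these differences in the results that follow was not tested.

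**Figure D1:**
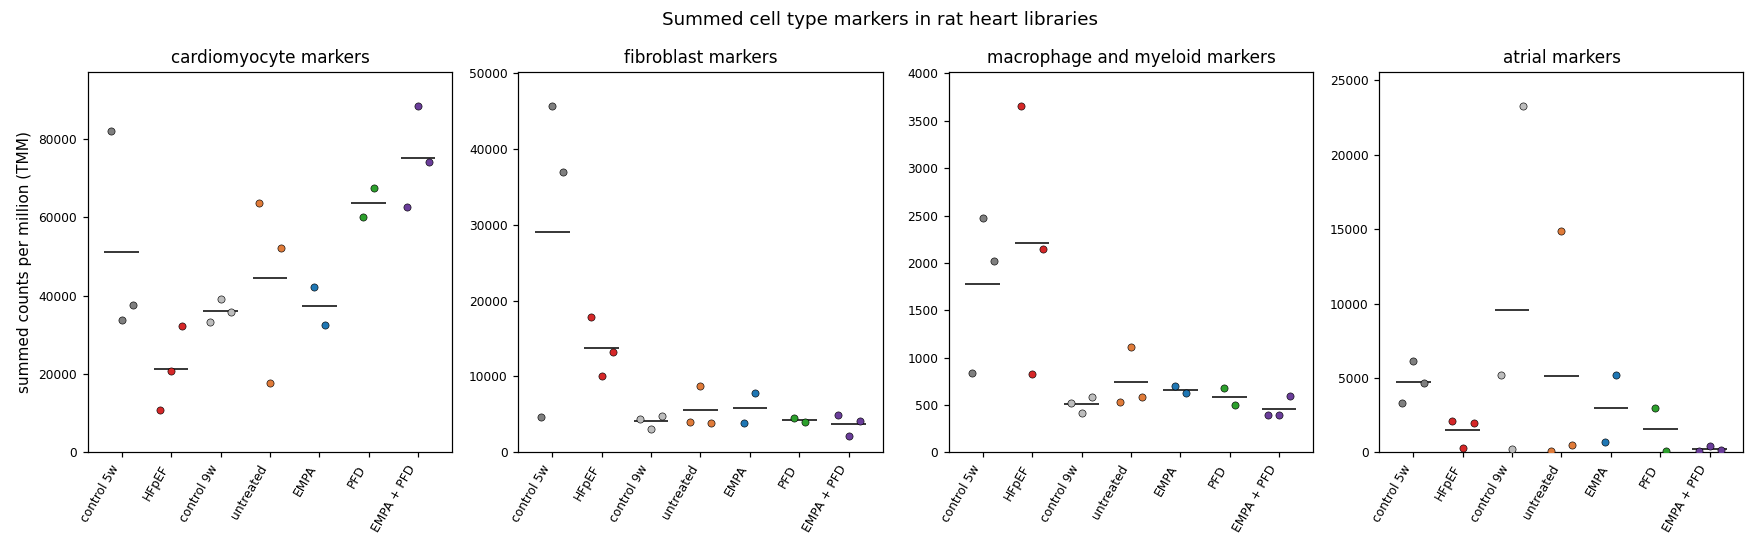
Summed CPM (vertical axis, linear from 0) of 4 marker lists in the 7 groups (horizontal axis). Points are libraries and lines are group means. The cardiomyocyte sum is lowest in HFpEF replicate 1 at 10839.5 CPM and highest in EMPA + PFD replicate 2 at 88276 CPM.

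CPM are not corrected for transcript length, so levels are compared between libraries and not between genes. Over the 19 libraries, Nqo1 ranged from 12.2 to 25.9 CPM, with counts of 118 to 361, and the deepest member in counts, Gpx3, had 2749 to 16648. One library held the most extreme values of several members. EMPA + PFD replicate 2 was the highest of the 19 for 6 of the 10 members (Hmox1, Gclm, Txnrd1, Sod2, Cat and Gpx1) and the lowest for Gpx3. It also had the smallest TMM scaling factor (0.811) and the highest cardiomyocyte marker sum (88276 CPM). How many of all tested genes were highest in this library was not counted, so this number is not read as a result about the members.

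**Figure D2:**
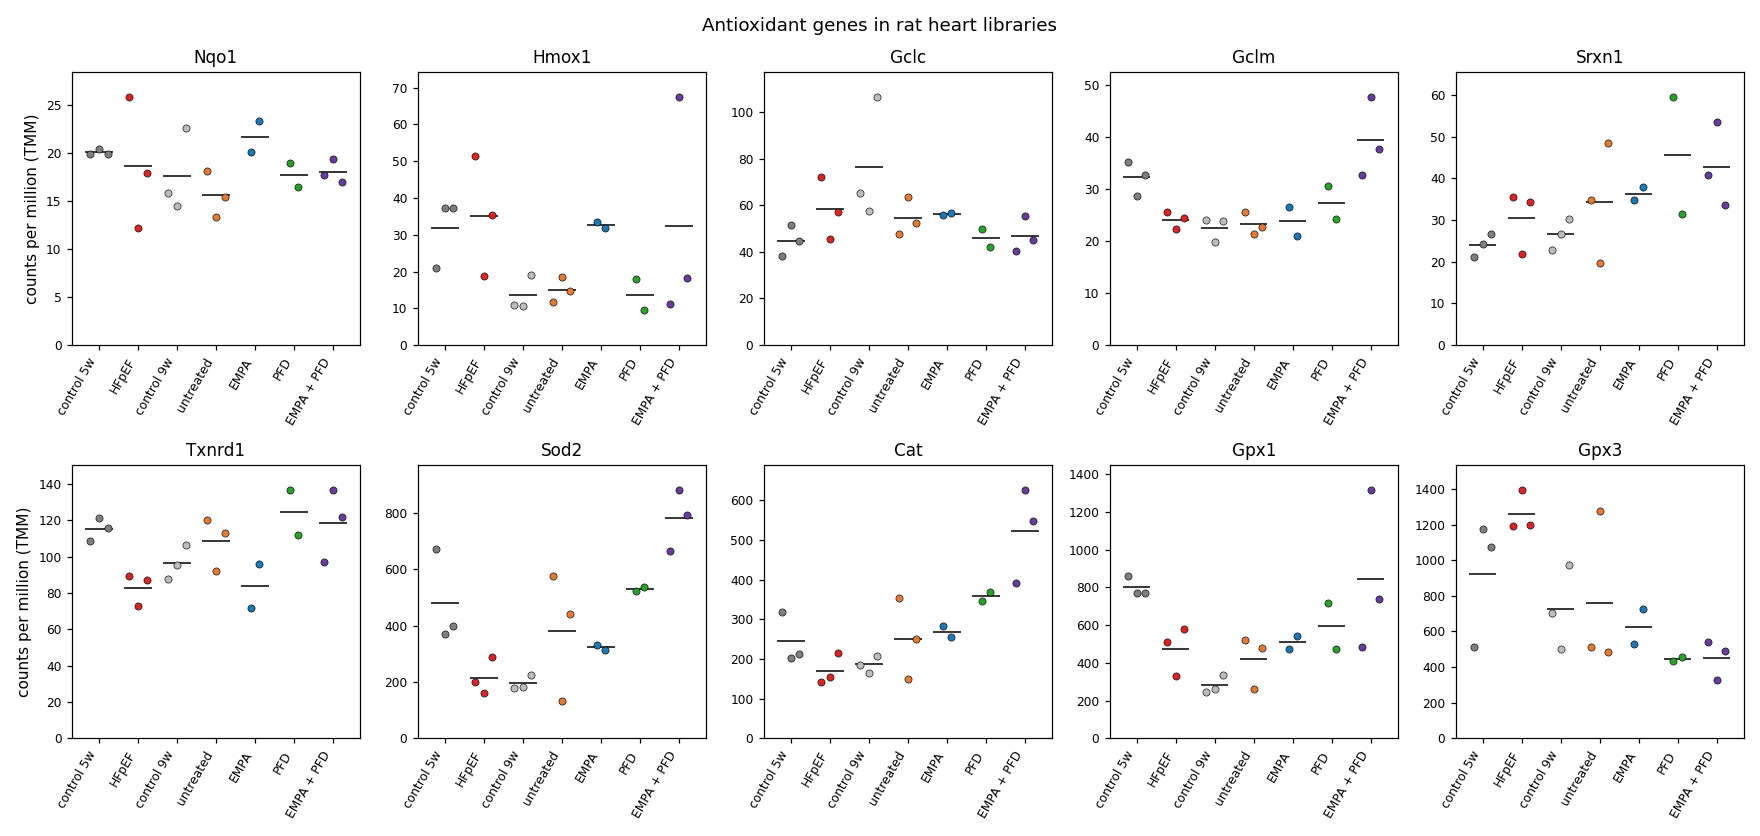
CPM after TMM scaling (vertical axes, linear from 0) of the 10 members in the 7 groups (horizontal axes). Points are single libraries and lines are group means. Sod2 and Cat are highest in EMPA + PFD, and untreated replicate 2 lies far below the other untreated libraries in Sod2, at 131 CPM.

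Sod2, the manganese superoxide dismutase of the mitochondrial matrix, varied most between group means. Its level was 674, 372 and 398 CPM in control 5w and 200.0, 160.5 and 287 CPM in HFpEF. Control 9w had 179, 183 and 225 CPM and untreated had 575, 131 and 441 CPM. The treated hearts had 332 and 314 CPM with EMPA, 522 and 538 with PFD, and 667, 882 and 795 with EMPA + PFD. All HFpEF libraries were below all control 5w libraries, and all EMPA + PFD libraries were above every library of the other week 9 groups. The untreated group held both a library below every control 9w value and 2 far above them. By mean, EMPA + PFD (781 ± 108 CPM, SD, n = 3) came first, followed by PFD, control 5w, untreated, EMPA, HFpEF and control 9w (195 ± 25.3 CPM, SD, n = 3). Neighbours in this order overlapped in their libraries, except EMPA + PFD with PFD and EMPA with HFpEF.

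In the edgeR test, Sod2 fell from control 5w to HFpEF by 1.16 on the log2 scale (SE 0.390, adjusted p = 0.0487 in edgeR), with 3 of 3 HFpEF libraries lower. This call lay close to the threshold of 0.05. It was lost in 16 of the 19 fits that each left out 1 library, among them fits without a library of neither compared group. It remained without HFpEF replicate 3, untreated replicate 1 or untreated replicate 2. Over these fits the log2 changes ran from −1.42 to −0.83 and edgeR adjusted p from 0.00498 to 0.178. Sod2 also fell from control 5w to control 9w, by 1.30 on the log2 scale (SE 0.391, edgeR adjusted p = 0.0195), with no overlap. Without control 5w replicate 1, control 9w replicate 1 or control 9w replicate 2 that log2 change was −0.97, −1.24 or −1.25 and edgeR gave an adjusted p of 0.0747, 0.0658 or 0.0699. Against control 9w, EMPA + PFD had Sod2 higher by 2.00 (log2, SE 0.399, edgeR adjusted p = 0.00254), which held in each of the 19 fits without 1 library, with log2 changes from 1.91 to 2.12. Against untreated the log2 difference was 1.03 (SE 0.388), with edgeR adjusted p = 0.0866, and 0.0315 without untreated replicate 1. The cardiomyocyte marker sums listed above were also lower in every HFpEF library than in every control 5w library, with a median log2 fold change of −1.24 over the 9 markers, low in untreated replicate 2 and high in EMPA + PFD. Their part in the Sod2 differences was not tested.

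Cat encodes catalase, a heme enzyme of the peroxisome that splits hydrogen peroxide. Control 5w had 318, 202 and 213 CPM and HFpEF had 141, 155 and 215 CPM. Control 9w had 184, 165 and 209 CPM, and untreated had 354, 149.6 and 249.7 CPM. With treatment the values were 284 and 254 CPM (EMPA), 346 and 370.0 CPM (PFD), and 391, 626 and 548 CPM (EMPA + PFD). Every EMPA + PFD library was above every other library of the series, whereas the HFpEF and control 5w libraries overlapped. In order of mean, EMPA + PFD (522 ± 120 CPM, SD, n = 3) was followed by PFD, EMPA, untreated, control 5w, control 9w and HFpEF, and neighbours from EMPA downward overlapped. Cat rose in EMPA + PFD against untreated, with a log2 fold change of 1.06 (SE 0.277, adjusted p = 0.0280 in edgeR). The call was lost without untreated replicate 2 (0.79, adjusted p = 0.111 in edgeR), untreated replicate 3 (1.07, 0.0680), EMPA + PFD replicate 2 (0.92, 0.120) or EMPA + PFD replicate 3 (1.04, 0.0749). Against control 9w the log2 fold change was 1.49 (SE 0.280, edgeR adjusted p = 0.00195), and it passed in all 19 fits without 1 library, with values from 1.35 to 1.67.

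Gpx1, a selenium-dependent glutathione peroxidase of cytosol and mitochondria, had 861, 771 and 768 CPM in control 5w and 509.8, 329 and 579.6 CPM in HFpEF. Control 9w had 247, 259 and 335 CPM and untreated had 522, 259.6 and 478 CPM. Values were 474 and 541 CPM with EMPA, 718 and 473 with PFD, and 481, 1316 and 737 with EMPA + PFD. Control 5w lay above HFpEF and control 9w without overlap, and the EMPA + PFD libraries spread widely, with replicate 1 inside the untreated range. Mean levels were highest in EMPA + PFD (845 ± 428 CPM, SD, n = 3) and control 5w (799.9 ± 53.0 CPM, SD, n = 3), then PFD, EMPA, HFpEF, untreated and control 9w, and control 5w and PFD were the only neighbours in this order without overlap. Gpx1 fell from control 5w to control 9w by 1.51 on the log2 scale (SE 0.341, edgeR adjusted p = 0.00433) and was higher in EMPA + PFD than in control 9w by 1.59 (log2, SE 0.342, edgeR adjusted p = 0.00375). Both held in all 19 fits without 1 library, with log2 changes from −1.66 to −1.43 and from 1.13 to 1.89. The difference of HFpEF from control 5w was −0.76 (log2, SE 0.336, edgeR adjusted p = 0.119), and that of EMPA + PFD from untreated was 1.01 (log2, SE 0.337, edgeR adjusted p = 0.0615).

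Gpx3, the secreted glutathione peroxidase found in plasma, had another profile. Its values were 515, 1173 and 1076 CPM in control 5w and 1195, 1395 and 1196 in HFpEF. At week 9 they were 705, 502 and 974 CPM in control 9w and 514, 1275 and 485 in untreated. EMPA had 528 and 726 CPM, PFD had 432 and 459, and EMPA + PFD had 539, 329 and 488. HFpEF held the highest mean (1262 ± 115 CPM, SD, n = 3) and PFD the lowest (445 ± 18.9 CPM, SD, n = 2), and apart from HFpEF and control 5w the neighbours in the order of means overlapped. Untreated replicate 2 was high in Gpx3 and low in Sod2, Cat and Gpx1 relative to the other untreated libraries. No comparison passed the edgeR test for Gpx3, and the smallest adjusted p was 0.175 for EMPA + PFD against control 9w. Without untreated replicate 2, untreated was lower than HFpEF by a log2 change of −1.34 (edgeR adjusted p = 0.0250), against −0.74 (edgeR adjusted p = 0.257) with it.

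Gclc and Gclm encode the catalytic and the modifier subunit of glutamate-cysteine ligase, which makes the first and limiting step of glutathione synthesis. Gclm had 35.1, 28.7 and 32.7 CPM in control 5w and 25.5, 22.3 and 24.4 CPM in HFpEF. Control 9w had 24.0, 19.8 and 23.7 CPM and untreated had 25.6, 21.3 and 22.7 CPM. The treated groups had 26.5 and 21.0 CPM (EMPA), 30.6 and 24.2 CPM (PFD), and 32.6, 47.7 and 37.6 CPM (EMPA + PFD). Every EMPA + PFD library was above every other week 9 library, and every control 5w library was above all HFpEF and control 9w libraries. The mean was 39.3 ± 7.68 CPM (SD, n = 3) in EMPA + PFD and 22.5 ± 2.36 CPM (SD, n = 3) in control 9w, the lowest group, with control 5w, PFD, HFpEF, EMPA and untreated between them and all neighbours overlapping.

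Gclm passed the test in 4 comparisons. It fell from control 5w to control 9w by 0.51 on the log2 scale (SE 0.154, edgeR adjusted p = 0.0188), a call lost without control 5w replicate 1 (−0.44, edgeR adjusted p = 0.0583), control 5w replicate 3 (−0.50, 0.0517) or control 9w replicate 2 (−0.43, 0.0873). EMPA + PFD was higher than untreated by 0.76 (log2, SE 0.154, edgeR adjusted p = 0.0124). Without untreated replicate 2 the log2 difference was 0.70 (edgeR adjusted p = 0.0601), and without EMPA + PFD replicate 2 it was 0.61 (edgeR adjusted p = 0.0643). Against EMPA alone the log2 difference was 0.73 (SE 0.175, edgeR adjusted p = 0.0255), lost without either EMPA library or without EMPA + PFD replicate 2 or 3, with log2 differences of 0.90, 0.57, 0.58 and 0.78 and edgeR adjusted p of 0.0681, 0.200, 0.0860 and 0.0549. The difference from control 9w, 0.80 (log2, SE 0.154, edgeR adjusted p = 0.00212), passed in all 19 fits without 1 library, with values from 0.65 to 0.94. HFpEF differed from control 5w by −0.42 (log2, SE 0.152, edgeR adjusted p = 0.0647) with no overlap.

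Gclc did not follow Gclm. Levels were 38.2, 51.5 and 44.8 CPM in control 5w and 71.9, 45.5 and 57.3 CPM in HFpEF. Control 9w had 65.4, 57.7 and 107 CPM and untreated had 47.8, 63.7 and 52.5 CPM. In EMPA the values were 55.9 and 56.5 CPM, in PFD 49.7 and 42.2, and in EMPA + PFD 40.3, 55.6 and 45.0. Control 9w was above control 5w and above EMPA + PFD without overlap, and its replicate 3, the library with the most atrial marker RNA, was the highest of the series. Gclc was highest on average in control 9w (76.6 ± 26.3 CPM, SD, n = 3) and lowest in control 5w (44.8 ± 6.68 CPM, SD, n = 3), and all neighbours between them overlapped. It rose from control 5w to control 9w by 0.77 (log2, SE 0.221, edgeR adjusted p = 0.0153), and by 0.46 without control 9w replicate 3 (edgeR adjusted p = 0.0864). In EMPA + PFD it was lower than in control 9w, with a log2 fold change of −0.71 (SE 0.222, edgeR adjusted p = 0.0246). Without control 9w replicate 3, EMPA + PFD replicate 1 or EMPA + PFD replicate 3 this was −0.39, −0.59 or −0.66, with edgeR adjusted p of 0.146, 0.0891 or 0.0761.

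Txnrd1 encodes the cytosolic thioredoxin reductase, which keeps thioredoxin reduced with electrons from NADPH. Control 5w had 109, 121 and 116 CPM and HFpEF had 89.1, 72.6 and 87.0 CPM. Control 9w had 87.5, 95.6 and 106 CPM and untreated had 119.9, 92.3 and 113 CPM. EMPA had 71.5 and 96.1 CPM, PFD had 137 and 112, and EMPA + PFD had 97.0, 137 and 122. HFpEF lay below control 5w without overlap, and at week 9 both PFD libraries lay above control 9w and EMPA, and EMPA + PFD lay above EMPA. From PFD (124 ± 17.4 CPM, SD, n = 2) down to HFpEF (82.9 ± 8.95 CPM, SD, n = 3), neighbours in the order of means overlapped. Txnrd1 fell in HFpEF by 0.47 on the log2 scale (SE 0.155, edgeR adjusted p = 0.0436). The call was lost in 10 of the 19 fits without 1 library, including each of the 6 that left out a library of either group, with log2 changes from −0.53 to −0.39 and edgeR adjusted p from 0.0307 to 0.144.

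Srxn1 encodes sulfiredoxin, which repairs overoxidized peroxiredoxins. Its values ran from 19.6 CPM in untreated replicate 2 to 59.6 CPM in PFD replicate 1, with group means from 24.0 ± 2.78 CPM (SD, n = 3) in control 5w to 45.5 ± 20.0 CPM (SD, n = 2) in PFD. All neighbours in the order of means overlapped, and Srxn1 passed in none of the 12 edgeR comparisons. EMPA + PFD, with 40.9, 53.6 and 33.6 CPM, was above control 9w, with 22.8, 26.7 and 30.3 CPM, by a log2 difference of 0.68 (SE 0.302, edgeR adjusted p = 0.0948, and 0.0453 without untreated replicate 2).

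Nqo1 and Hmox1, NRF2 targets that reduce quinones and break down heme, passed in none of the 12 edgeR comparisons. Nqo1 was between 19.9 and 20.5 CPM in control 5w and between 12.2 and 25.9 CPM in HFpEF, and its group means ran from 15.7 ± 2.38 CPM (SD, n = 3) in untreated to 21.7 ± 2.27 CPM (SD, n = 2) in EMPA, with all neighbours overlapping. Hmox1 had 21.0, 37.4 and 37.2 CPM in control 5w and 51.5, 18.8 and 35.3 CPM in HFpEF. At week 9 it had 10.9, 10.6 and 19.04 CPM in control 9w and 11.7, 18.4 and 14.6 CPM in untreated. EMPA had 33.4 and 31.9 CPM, PFD had 17.9 and 9.46, and EMPA + PFD had 11.2, 67.5 and 18.3. Both EMPA libraries were above all control 9w, untreated and PFD libraries, and within EMPA + PFD replicate 2 alone was high. The log2 difference of EMPA from untreated was 1.13 (SE 0.591), with edgeR adjusted p = 0.626. Macrophage and myeloid markers summed to 396 CPM in EMPA + PFD replicate 2, near the lowest of the series, and to 3652 CPM in HFpEF replicate 1, the library second in Hmox1; their part in the Hmox1 values was not tested. Leaving out EMPA + PFD replicate 2 changed the difference of that group from control 9w from 1.25 (log2, SE 0.546) to 0.13, and leaving out replicate 1 changed it to 1.68 (edgeR adjusted p = 0.0239). All control 9w libraries were below all control 5w libraries in Hmox1, at −1.23 (log2, edgeR adjusted p = 0.0910). That difference passed without EMPA + PFD replicate 2 (edgeR adjusted p = 0.0232), in a fit of these groups only (edgeR adjusted p = 0.0296) and in voom.

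HFpEF against control 5w asked what changed with disease at week 5. Of the 10 members, 0 rose and 2 fell (Txnrd1 and Sod2), while 9.83% of all tested genes were called higher and 10.2% lower in edgeR. The median log2 fold change of the members was −0.26, against 0.02 over all tested genes. Without 1 library the number of members called was 0, 1 or 2. With the libraries of these groups only, Txnrd1 was −0.47 (log2, edgeR adjusted p = 0.0628) and Sod2 −1.16 (log2, edgeR adjusted p = 0.0841). With Eif2s3y as a covariate they were −0.67 (edgeR adjusted p = 0.0691) and −1.58 (edgeR adjusted p = 0.0999), and with the replicate block −0.47 (edgeR adjusted p = 0.0613) and −1.17 (edgeR adjusted p = 0.0520). Restricted to libraries with Eif2s3y counts, HFpEF was replicate 2 alone, with log2 fold changes of −0.60 for Txnrd1 and −1.52 for Sod2; the spread in that fit came from the other groups, so no test is read from it. In the fit of all libraries cardiomyocyte markers had 0 of 9 called higher and 2 lower, and endothelial markers had 6 of 9 called higher and 0 lower, with a median log2 fold change of 0.75; their part was not tested.

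Control 9w against control 5w compared control hearts 4 weeks apart. Here 1 member rose (Gclc) and 3 fell (Gclm, Sod2 and Gpx1), beside 17.3% of all tested genes called higher and 17.2% lower, and the median log2 fold change was −0.37 for the members and −0.04 for all tested genes. The count was 2 without control 5w replicate 1 or control 9w replicate 2 and at most 5. Week 5 and week 9 controls also differed without overlap in RT1-CE16, in endothelial marker sums (2017 to 2691 CPM against 4654 to 7707, with 8 of 9 markers called higher) and in macrophage and myeloid marker sums (837 to 2477 CPM against 417 to 582, with 7 of 12 called lower). Fibroblast markers had 7 of 9 called lower, although replicate 1 of control 5w lay within the control 9w sums, and week and these differences cannot be told apart.

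At week 9, untreated differed from control 9w in 0 of 10 members by edgeR, while 1.78% of tested genes were called in either direction. With an unadjusted p under 0.05 there were 2 members, beside 2259 of all 12388 genes. DESeq2 called 0 members, and voom 7 members beside 5005 genes. The median log2 fold change of the members was 0.15, against 0.01 over all genes. Untreated against HFpEF gave 0 members in edgeR, beside 0.226% of genes, and 0 in DESeq2. By unadjusted p there were 2 members beside 2817 genes, and in voom 4 members beside 3449 genes. The number of all genes called is not given here for DESeq2 or for fits without 1 library. Such member counts, in these and the other comparisons, are therefore not read as results about the members. Leaving out untreated replicate 2 raised the edgeR numbers against control 9w and HFpEF to 1 and 3 members. Sod2 was then higher in untreated than in control 9w by 1.38 (log2, edgeR adjusted p = 0.0117) and than in HFpEF by 1.23 (log2, edgeR adjusted p = 0.0155), and Cat was higher than in HFpEF by 0.82 (log2, edgeR adjusted p = 0.0407), with Gpx3 lower as given above.

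EMPA + PFD against untreated asked for the effect of the combined treatment. Gclm and Cat rose and 0 members fell, so 2 of 10 were called higher beside 6.6% of all tested genes, and 5.52% of genes were called lower. The median log2 fold change of the members was 0.54, against −0.03 for all tested genes, and 8 of 10 members had values above 0. In the same comparison the median log2 fold change was 0.83 for cardiomyocyte markers (1 of 9 higher, 0 lower), −0.74 for endothelial markers (0 of 9 higher, 1 lower) and −6.45 for atrial markers (0 of 5 higher, 2 lower), and their part was not tested. The number of members called was 0 without untreated replicate 2 or EMPA + PFD replicate 2 and 4 without untreated replicate 1. It was also 0 without control 9w replicate 3 and untreated replicate 2, the libraries with the most atrial marker RNA, an alternative chosen after seeing the data, with Gclm at 0.70 and Cat at 0.79 (log2, edgeR adjusted p = 0.0670 and 0.120). In a fit of these groups only, Gclm was 0.75 and Cat 1.04 (log2, edgeR adjusted p = 0.0961 and 0.128), and with Eif2s3y as a covariate 0.93 and 1.25 (log2, edgeR adjusted p = 0.0759 and 0.169). HFpEF was the only group with libraries both with and without Eif2s3y, so that adjustment rested on HFpEF replicate 2 against replicates 1 and 3.

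No member passed the test under either drug alone. Both EMPA libraries had Eif2s3y and lacked RT1-CE16, and all untreated libraries lacked Eif2s3y and had RT1-CE16. These splits and the drug cannot be told apart in EMPA against untreated. The same holds for the Eif2s3y split in EMPA + PFD against PFD. EMPA against untreated called 0 of 10 members and 0.0404% of genes in edgeR, and PFD against untreated 0 members and 0.00807% of genes. By an unadjusted p under 0.05 there were also 0 members in both, beside 1069 (EMPA) and 646 (PFD) of the 12388 genes. DESeq2 and voom called 0 members. Each of these groups had 2 libraries, and the member with the smallest adjusted p had 0.583 with EMPA and 0.786 with PFD in edgeR. EMPA + PFD against PFD called 0 members and 0% of genes, with 1 member (Gclm) beside 1266 of the 12388 genes under an unadjusted p of 0.05, and 0 members in DESeq2 and voom. Against EMPA, EMPA + PFD had 1 member higher (Gclm) and 0 lower, beside 5.3% and 4.42% of all genes, and the number was 0 without either EMPA library or without EMPA + PFD replicate 2 or 3, and 3 without untreated replicate 2 or EMPA + PFD replicate 1. In a fit of these groups only, the Gclm difference was 0.73 (log2, edgeR adjusted p = 0.0632), while Sod2 at 1.28 and Cat at 0.96 passed (log2, edgeR adjusted p = 0.0193 and 0.0432). RT1-CE16 had 0 counts in both EMPA libraries and 308 to 720 in EMPA + PFD. Cardiomyocyte marker sums were 32582 to 42110 CPM in EMPA and 62614 to 88276 in EMPA + PFD. Endothelial marker sums were 4043 to 5588 CPM in EMPA and 3065 to 3390 in EMPA + PFD. The part of these differences was not tested.

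The interaction of EMPA and PFD is the excess of the combined log2 change over the sum of the single changes. It called 0 members in edgeR, DESeq2 and voom, beside 0.00807% of genes in edgeR. By an unadjusted p under 0.05 there were 0 members, beside 1131 of the 12388 genes. For Gclm the excess was 0.49 (log2, SE 0.245, edgeR adjusted p = 0.579) and for Sod2 0.80 (log2, SE 0.615, edgeR adjusted p = 0.732). So the calls under the combination were not shown to differ from the sum of the single effects. Of the groups in this interaction only EMPA lacked RT1-CE16, so that split and the interaction cannot be told apart.

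EMPA + PFD against control 9w held the most member calls of the 12 comparisons. There 4 members were higher (Gclm, Sod2, Cat and Gpx1) and 1 was lower (Gclc), beside 17.1% of all genes called higher and 16.6% lower. The members had a median log2 fold change of 0.74, against −0.08 for all tested genes. Leaving out 1 library gave 4 to 6 members, and the 4 that were higher passed in each of the 19 such fits. In the same comparison cardiomyocyte markers had 4 of 9 called higher (median log2 fold change 1.34), endothelial markers 7 of 9 lower (median −1.03), atrial markers 3 of 5 lower and red cell markers 4 of 6 tested lower, and their part in the member calls was not tested. Comparisons with control 9w or untreated share those libraries, so their values are not independent.

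The interaction of disease and week asked whether the difference between diseased and control hearts was another at week 9 than at week 5. It subtracts HFpEF against control 5w from untreated against control 9w. The sample labels do not say whether L-NAME and the diet went on after week 5, while the discussion of the authors speaks of an induction lasting 9 weeks; what this value and untreated against HFpEF mean depends on it. Of the 10 members, Sod2 alone was called in edgeR, beside 20% of all tested genes called in either direction, and the median log2 value of the members was 0.24, against −0.02 for all tested genes. Sod2 was lower in HFpEF than in control 5w in every library, whereas 2 of 3 untreated libraries were above control 9w, which gave 2.12 (log2, SE 0.550, edgeR adjusted p = 0.0161). Without untreated replicate 1 it was 1.71 (edgeR adjusted p = 0.0529), and in a fit of these groups only 2.13 (edgeR adjusted p = 0.0505). The number of members called was 0 without that library and 5 without untreated replicate 2. Cardiomyocyte marker sums were likewise lower in every HFpEF library than in control 5w. They were above every control 9w library in untreated replicates 1 and 3 and below them in replicate 2. Their median log2 fold changes were −1.24 in HFpEF against control 5w and 0.32 in untreated against control 9w, and their part was not tested.

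**Figure D3:**
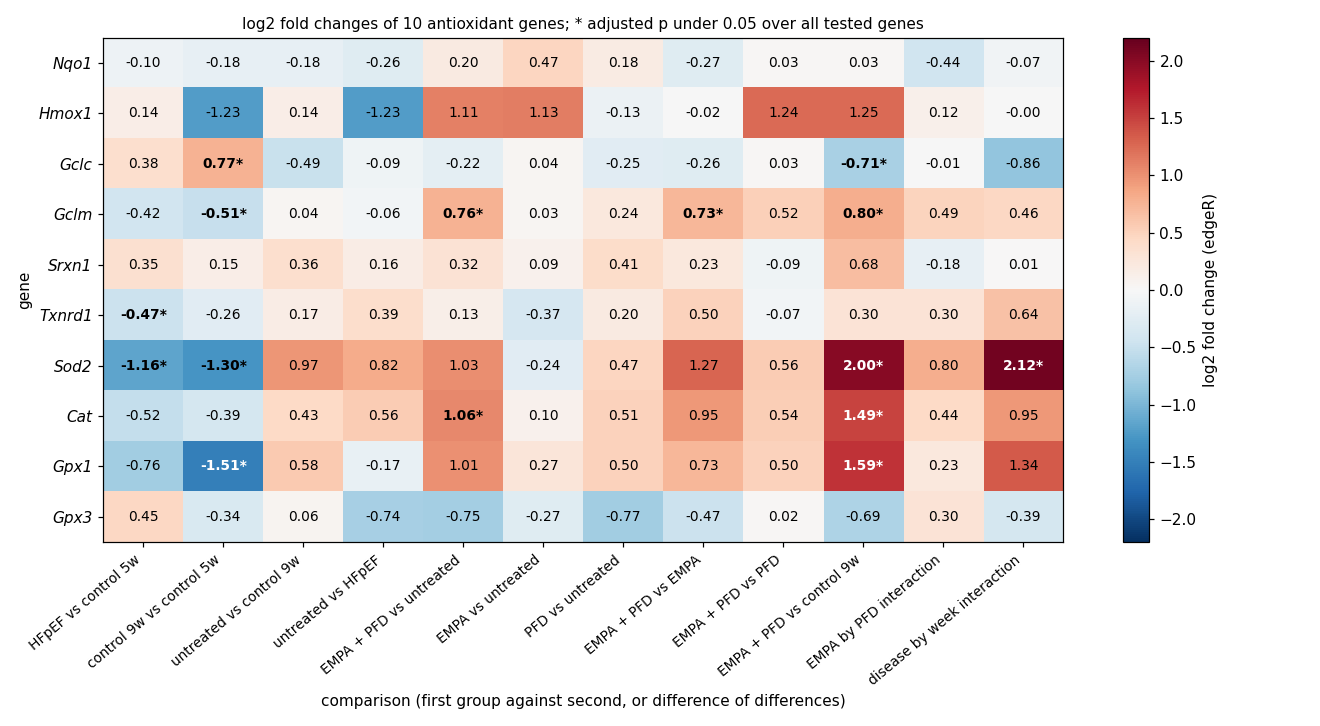
edgeR log2 fold changes (colour and printed value) of the 10 members (rows) in the 12 comparisons (columns). An asterisk marks an adjusted p under 0.05 over all 12388 tested genes. Sod2 is lower in HFpEF than in control 5w (−1.16) and higher in EMPA + PFD than in control 9w (2.00).

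RNA of NRF2 itself, of KEAP1 and of BACH1 passed the test neither in HFpEF against control 5w nor in EMPA + PFD against untreated. Nfe2l2 had 122, 134 and 134 CPM in control 5w, 128, 131 and 120.3 in HFpEF, and 139.8, 144 and 137 in control 9w. It had 114, 114 and 132 CPM in untreated, 119 and 117 in EMPA, 111 and 123 in PFD, and 136, 121 and 114 in EMPA + PFD. Its values in control 9w were above all those in control 5w, untreated and EMPA + PFD, and the libraries of HFpEF and control 5w, and of EMPA + PFD and untreated, overlapped. The log2 fold change was −0.04 in HFpEF against control 5w (SE 0.0959, edgeR adjusted p = 0.812) and 0.05 in EMPA + PFD against untreated (SE 0.0961, edgeR adjusted p = 0.757). Keap1 gave 0.11 and 0.00 in the same comparisons (edgeR adjusted p = 0.597 and 0.988) and Bach1 −0.08 and 0.10 (edgeR adjusted p = 0.690 and 0.627). Of 9 NRF2 regulators tested, 1 rose and 0 fell in HFpEF, beside 9.83% and 10.2% of all tested genes. It was the small MAF gene Maff, from 33.8, 38.0 and 37.8 CPM to 55.7, 74.0 and 68.2, by 0.85 (log2, SE 0.276, edgeR adjusted p = 0.0424). That call was lost in 10 of the 19 fits without 1 library. Maff was also higher in control 9w than in control 5w, by 1.24 (log2, SE 0.278, edgeR adjusted p = 0.00406). In EMPA + PFD against untreated, edgeR called 0 of the 9 regulators, beside 6.6% and 5.52% of all tested genes. From control 5w to control 9w 3 of the 9 rose and 1 fell, beside 17.3% and 17.2% of all tested genes, and in EMPA + PFD against control 9w 4 were higher and 2 lower, beside 17.1% and 16.6%. Bach1 was among the 4, with 13.5, 14.5 and 16.4 CPM in EMPA + PFD above 11.6, 11.3 and 11.6 CPM in control 9w (log2 0.36, SE 0.135, edgeR adjusted p = 0.0499). This call was lost in 13 of the 19 fits without 1 library, with log2 values from 0.30 to 0.44, and in 8 of 12 other alternatives, all run after its values were seen.

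Other genes of the antioxidant network were read from 10 lists with 116 tested genes. In HFpEF, 21 of the 116 rose and 13 fell, beside 9.83% and 10.2% of all tested genes, with a median log2 fold change of −0.06 against 0.02 for all tested genes. Of 18 thioredoxin and peroxiredoxin genes, 2 rose and 5 fell, and 5 to 8 were called without 1 library. Txnip, an inhibitor of thioredoxin that also answers to glucose, went from 508, 516 and 517 CPM to 1959, 1329 and 2489, a log2 rise of 1.91 (SE 0.257, edgeR adjusted p = 0.000610). Prdx3, the mitochondrial peroxiredoxin, went from 501, 293 and 318 CPM to 115, 149.9 and 217, a log2 change of −1.21 (SE 0.367, edgeR adjusted p = 0.0329). Of 12 NADPH genes, 1 rose and 1 fell, and 1 to 7 were called without 1 library. Nnt, the mitochondrial transhydrogenase that makes NADPH, had 1694, 1008 and 1158 CPM in control 5w and 247, 312 and 521 in HFpEF (log2 −1.84, SE 0.449, edgeR adjusted p = 0.0136). Control 9w differed from control 5w in the same direction in Txnip (2.04), Prdx3 (−1.02) and Nnt (−1.37) (log2, edgeR adjusted p = 0.000165, 0.0428 and 0.0277). Cardiomyocyte and endothelial markers moved in HFpEF as given above, with median log2 fold changes of −1.24 and 0.75. Their part in the network changes was not tested.

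Glutathione transferases and detoxifying enzymes moved both ways in HFpEF. Of 17 other glutathione peroxidases and transferases 4 rose and 3 fell, beside 9.83% and 10.2% of all tested genes, and without 1 library 4 to 7 were called. Gsta1, an alpha class transferase, rose from 32.6, 35.5 and 30.1 CPM to 106, 106 and 91.6, by 1.63 (log2, SE 0.197, edgeR adjusted p = 0.000308), and Mgst3, a microsomal transferase, fell by 1.85 on the log2 scale (SE 0.405, edgeR adjusted p = 0.00826). Of 14 quinone and carbonyl detoxification genes 4 rose and 1 fell, and 2 to 7 were called without 1 library. Akr1b10, an aldo-keto reductase, went from 42.8, 26.1 and 32.5 CPM to 3.23, 5.04 and 5.18 (log2 −2.92, SE 0.430, edgeR adjusted p = 0.00104). Aldh3a1, an aldehyde dehydrogenase, rose from 5.65, 2.25 and 2.15 CPM to 13.7, 22.3 and 10.9 (log2 2.23, SE 0.594, edgeR adjusted p = 0.0191). In control 9w against control 5w, Gsta1 at 1.31 and Akr1b10 at −2.11 passed as well (log2, edgeR adjusted p = 0.000415 and 0.00199). Mgst3 at −1.05 and Aldh3a1 at 0.69 did not pass there (log2, edgeR adjusted p = 0.0512 and 0.391). Akr1b10 belongs to a family of close relatives, so its reads could be shared with them.

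Among 8 genes of glutathione synthesis and recycling, Ggt5, a gamma-glutamyltransferase, alone passed in HFpEF, with a log2 rise of 1.17 (SE 0.311, edgeR adjusted p = 0.0189). Of 3 other superoxide dismutase genes, Ccs, the copper chaperone of SOD1, rose by 0.41 (log2, SE 0.0903, edgeR adjusted p = 0.00871). The heme and iron list, which also holds the metallothioneins Mt1 and Mt2A, gave 4 rises and 0 falls among 9 tested, beside 9.83% and 10.2% of all tested genes. Mt1 and Mt2A were 2 of these 4. Over the fits without 1 library 0 to 7 heme and iron genes, 0 to 4 sources of reactive oxygen and 0 to 3 peroxisome genes were called. The metallothioneins Mt1 and Mt2A rose by 2.26 and 3.40 (log2, edgeR adjusted p = 0.0340 and 0.0361), but HFpEF replicate 2, with 4.40 and 2.48 CPM, lay within the control 5w values, and the other HFpEF libraries had 58.5 and 24.0 CPM of Mt1 and 96.9 and 31.3 CPM of Mt2A. Replicate 2 was the HFpEF library with Eif2s3y. Of 12 sources of reactive oxygen, 3 rose and 0 fell, among them Cyba, the p22phox subunit of NADPH oxidases, by 0.83 (log2, SE 0.234, edgeR adjusted p = 0.0241), and Duox2 by 1.84 (log2, SE 0.540, edgeR adjusted p = 0.0285) at levels under 4 CPM. Of 14 peroxisome genes, 0 rose and 3 fell, among them the biogenesis factor Pex3 at −0.62 (log2, SE 0.177, edgeR adjusted p = 0.0257). Of the 17 genes that the naming rule picks from these lists in HFpEF, 6 (Mgst3, Gsta1, Txnip, Ccs, Nnt and Akr1b10) passed in all 19 fits without 1 library, and 11 were lost in at least 1. Of these 6, Mgst3 and Nnt lost their calls with Eif2s3y as a covariate. Ccs lost its call in a fit of these groups only and with a fold of at least 2 as well. Ggt5 at 1.48, Mt1 at 1.92 and Pex3 at −0.60 also passed in control 9w against control 5w (log2, edgeR adjusted p = 0.00302, 0.0433 and 0.0185). Ccs, Mt2A, Cyba and Duox2 did not pass there.

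In EMPA + PFD against untreated, 17 of the 116 network genes rose and 7 fell, beside 6.6% and 5.52% of all tested genes, and their median log2 fold change was 0.23, against −0.03 for all tested genes. Peroxisome genes held the most rises, 7 of 14, with 0 falls and a median of 0.62. The 9 cardiomyocyte markers had a median of 0.83 in the same comparison, with 1 called higher, and their part in this was not tested. Pex11a, which promotes peroxisome division, had 10.4, 6.25 and 8.64 CPM in untreated and 11.8, 36.2 and 30.8 in EMPA + PFD (log2 1.64, SE 0.412, edgeR adjusted p = 0.0250). Catalase is carried in the same organelle. The number of peroxisome genes called was 0 without untreated replicate 2 or EMPA + PFD replicate 2, and ran up to 9 over the 19 fits without 1 library.

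Of 18 thioredoxin and peroxiredoxin genes 3 rose and 1 fell under the combination, and 0 to 5 were called without 1 library. Beside this and the other lists of this paragraph, edgeR called 6.6% of all tested genes higher and 5.52% lower. Txnip went from 1568, 1322 and 1606 CPM in untreated to 2306, 3163 and 2984, a log2 rise of 0.91 (SE 0.250, edgeR adjusted p = 0.0335), and Txnrd3, a thioredoxin reductase, went from 27.1, 14.1 and 24.1 CPM to 33.2, 36.9 and 34.4 (log2 0.68, SE 0.207, edgeR adjusted p = 0.0459). Heme and iron genes gave 2 rises and 0 falls of 9: Fech, the ferrochelatase that inserts iron into heme, by 0.92 (log2, SE 0.242, edgeR adjusted p = 0.0293), and Hmox2, the constitutive heme oxygenase, by 0.49 (log2, SE 0.139, edgeR adjusted p = 0.0365). NADPH genes split into 2 rises and 3 falls of 12, and 0 to 8 were called without 1 library, with Nadk2, the mitochondrial NAD kinase, at 1.23 (log2, SE 0.366, edgeR adjusted p = 0.0432) and the malic enzyme Me2 at −0.88 (log2, SE 0.236, edgeR adjusted p = 0.0304). Cyba, 1 of 12 oxygen radical sources called, went from 25.6, 44.2 and 29.9 CPM to 17.6, 13.9 and 17.6 (log2 −1.03, SE 0.243, edgeR adjusted p = 0.0209).

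Detoxification gave 2 rises and 1 fall of 14 under the combination, beside 6.6% and 5.52% of all tested genes. Cbr1, a carbonyl reductase, went from 17.6, 8.12 and 7.38 CPM to 27.3, 39.9 and 44.9 (log2 1.76, SE 0.505, edgeR adjusted p = 0.0384). Aldh3a1 went from 7.28, 36.1 and 9.48 CPM to 4.02, 1.67 and 3.03 (log2 −2.60, SE 0.612, edgeR adjusted p = 0.0206). In the glutathione lists, Ggt5 fell by 1.21 on the log2 scale (SE 0.317, edgeR adjusted p = 0.0281) and Gstz1, a zeta class transferase, rose by 0.86 (log2, SE 0.229, edgeR adjusted p = 0.0299), while 0 of 3 other superoxide dismutase genes was called. Each of the 13 genes that the naming rule picks for the combination lost its call in at least 1 of the 19 fits without 1 library, and all 13 did so without untreated replicate 2 or EMPA + PFD replicate 2. In EMPA and in PFD against untreated, edgeR, with 116 network genes tested, called 0 in each, beside 0.0404% and 0.00807% of all tested genes.

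Against control 9w, 38 of the 116 network genes were higher in EMPA + PFD and 11 lower, beside 17.1% and 16.6% of all tested genes, with a median log2 difference of 0.24, against −0.08 for all tested genes. Thioredoxin and peroxiredoxin genes gave 10 higher and 2 lower of 18, NADPH genes 6 and 2 of 12, and peroxisome genes 8 and 0 of 14. Without 1 library the numbers called ran from 5 to 15, from 4 to 9 and from 5 to 8, and those of thioredoxin and NADPH genes were lowest without control 9w replicate 2 or EMPA + PFD replicate 2, NADPH genes also without EMPA + PFD replicate 3. Cardiomyocyte and endothelial markers moved in this comparison as given above, and their part in these counts was not tested. From control 5w to control 9w, 21 of 116 rose and 24 fell, beside 17.3% and 17.2% of all tested genes.

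Members were compared with all other tested genes by Pearson's r of log2 CPM over the 19 libraries, as a description, since these libraries share groups and cell content. Most like Sod2 were Hspd1, a chaperone of the mitochondrial matrix (r = 0.994), and Poldip2 (r = 0.989). Most like Cat were Hibch (r = 0.981) and Hadhb (r = 0.977), mitochondrial enzymes of valine and fatty acid breakdown. Next came Gpx3 with Aoc3 (r = 0.962) and Ptgis (r = 0.948), Gpx1 with Rnf10 (r = 0.936) and Serbp1 (r = 0.928), and Gclm with Vps26a (r = 0.930) and G3bp2 (r = 0.924). Srxn1 was most like Psmd8 (r = 0.890) and Osgin1 (r = 0.882), Gclc like Sgsm3 (r = 0.877) and Gprc5a (r = 0.857), and Txnrd1 like Abhd17c (r = 0.850) and Mpp7 (r = 0.849). Nqo1 had Rexo2 (r = 0.834) and Synm (r = 0.776), and Hmox1 had Lpar1 and Polr1d (both r = 0.790).

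Among the 45 pairs of members, r over the 19 libraries ran from −0.791 to 0.926 with a median of 0.290, and 14 pairs were above 0.5 and 4 below −0.5. Sod2 and Cat were the most alike (r = 0.926), and Gclm with Gpx1 (0.826) and Sod2 with Gpx1 (0.804) followed. Cat and Gpx3 were the most opposed (r = −0.791), then Sod2 and Gpx3 (r = −0.711). The subunits Gclc and Gclm did not belong to the pairs above 0.5, with r = −0.382 over the 19 libraries but 0.324 within groups. Other pairs also differed within groups, such as Hmox1 with Gclc (0.198 and 0.802) and Gclm with Sod2 (0.781 and 0.465).

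The RefSeq promoter table of the GRCr8 assembly held 300-base windows around the start of 9 of the 10 members, and Hmox1 was the other one. The core of the antioxidant response element, TGACNNNGC, was searched on both strands, and 12.1% of all 33469 windows held it. It was found in the windows of 3 members, Gclm, Sod2 and 1 of 2 windows of Txnrd1, each time on the strand opposite to the gene. The windows of Gclm and Sod2 are shown because these genes passed the test in the most comparisons. They are at chr2:213031885-213032184 (plus strand) and chr1:50050119-50050418 (minus strand) of GRCr8, each written in the direction of the gene, and capitals mark the match as read on the gene's strand.
Gclm: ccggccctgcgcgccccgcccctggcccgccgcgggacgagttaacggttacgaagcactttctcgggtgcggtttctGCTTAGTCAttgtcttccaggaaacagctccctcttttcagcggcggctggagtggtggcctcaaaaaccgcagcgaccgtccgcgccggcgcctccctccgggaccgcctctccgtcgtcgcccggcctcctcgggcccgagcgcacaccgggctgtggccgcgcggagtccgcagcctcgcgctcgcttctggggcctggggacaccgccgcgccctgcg
Sod2: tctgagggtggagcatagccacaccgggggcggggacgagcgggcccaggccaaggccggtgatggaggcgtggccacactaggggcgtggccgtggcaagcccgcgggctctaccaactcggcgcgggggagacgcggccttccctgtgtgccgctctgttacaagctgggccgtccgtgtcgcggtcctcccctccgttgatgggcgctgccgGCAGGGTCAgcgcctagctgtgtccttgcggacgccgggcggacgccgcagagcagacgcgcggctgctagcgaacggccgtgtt
A match is a stretch of letters, and binding was not measured here. In the same assembly other annotated genes overlap Hmox1, Txnrd1 and Cat (a noncoding RNA for Hmox1, noncoding RNAs and Eid3 for Txnrd1, a pseudogene for Cat), and a pseudogene Sod2-ps1 exists, so that without a stated strand setting reads of these cannot be told apart with certainty.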

How the data were processed

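Raw counts per gene for 19 libraries were used as deposited; the authors had trimmed reads with Trim Galore, checked them with FastQC, aligned them with HISAT2 to the rat assembly rn6 and counted them with htseq-count. The sources used here name neither the strand setting nor the overlap mode nor the version of the annotation, and the files hold no entries for unassigned reads. Counts were analysed in R 4.3.3 with edgeR 4.0.16 by the quasi-likelihood F test, in 1 model of 7 groups, after filterByExpr (12388 genes kept) and TMM scaling. CPM use TMM-scaled library sizes. A gene was called at an adjusted p (Benjamini-Hochberg over all kept genes) under 0.05. The code was tested on simulated data. The common biological coefficient of variation was 0.257, and depth per library is given at the start of the report.

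All members were read in 12 comparisons. From 10 lists of related genes, Nfe2l2, Keap1 and Bach1 were always named, with the 2 genes per list of largest absolute log2 change among those called in HFpEF against control 5w and in EMPA + PFD against untreated. Some genes that this rule picks are not reported here. For each member, the 2 most correlated tested genes were named. Members and lists were chosen with earlier results of these data known. Alternatives were relative log expression and upper quartile scaling, 2 count filters, DESeq2 1.42.0, limma 3.58.1 (voom with sample quality weights), a fit of the compared groups only, a fold of at least 2 as well, replicate number as a block, Eif2s3y as covariate or restriction, and leaving out each library. The series-wide table holds the same counts and was not used.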

Additional observations from a re-analysis of the deposited data

Results flagged for a closer look

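Sod2 was singled out because its difference between diseased and control hearts was another at week 9 than at week 5. The difference of differences was 2.12 on the log2 scale (edgeR adjusted p = 0.0161). The call was lost without untreated replicate 1 (1.71, edgeR adjusted p = 0.0529) and in a fit of these groups only (edgeR adjusted p = 0.0505). At week 5 every HFpEF library was below every control library, and at week 9 untreated replicates 1 and 3 were above every control library while replicate 2 was below them. The week 9 comparison alone was not called. All untreated libraries and 2 of 3 HFpEF libraries lack Eif2s3y counts, and no control library does. Cardiomyocyte marker sums ran the same way: every HFpEF library was below every control 5w library. Untreated replicates 1 and 3 were above every control 9w library in these sums, and replicate 2 was below them. The median log2 fold change of the 9 markers was −1.24 in HFpEF and 0.32 in untreated, each against the control of its week. The cause was not tested.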

How the results depend on the processing

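Members called out of 10 are given here for each alternative that moved the number by over 1.5 times. The cause was not tested. The number of all genes called also differs between alternatives, as given above for voom in untreated against control 9w. It is not given here for each alternative, so these counts are not read as results about the members. For HFpEF against control 5w (2 members) it was 0 with the compared groups only, 1 with a fold of at least 2 as well, 0 with Eif2s3y as covariate and 1 with only libraries holding Eif2s3y counts, where HFpEF is 1 library with no spread of its own. For control 9w against control 5w (4) it was 8 in voom and 2 with the fold. Untreated against control 9w (0) gave 7 in voom, and untreated against HFpEF (0) gave 4 in voom. EMPA + PFD against untreated (2) gave 4 in DESeq2, 4 in voom, 0 with the compared groups only, 1 with the fold and 0 with the Eif2s3y covariate. EMPA + PFD against EMPA (1) gave 4 in DESeq2, 4 in voom, 2 with the compared groups only, 0 with the fold and 3 with only libraries holding Eif2s3y counts. EMPA + PFD against control 9w (5) gave 9 in voom and 3 with the fold. The disease by week interaction (1) gave 3 with upper quartile scaling, 4 in DESeq2, 5 in voom, 2 with the compared groups only and 2 with the Eif2s3y covariate. EMPA against untreated, PFD against untreated, EMPA + PFD against PFD and the EMPA by PFD interaction stayed at 0 in every alternative.

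Leaving out control 9w replicate 3 and untreated replicate 2, an alternative chosen after seeing the data, gave 1 (untreated against control 9w), 3 (untreated against HFpEF), 0 (EMPA + PFD against untreated), 3 (EMPA + PFD against EMPA) and 4 (disease by week). Leaving out each library in turn gave 0 to 2 members for HFpEF against control 5w, 2 to 5 for control 9w against control 5w, 0 to 1 for untreated against control 9w, 0 to 3 for untreated against HFpEF, 0 to 4 for EMPA + PFD against untreated, 0 to 3 against EMPA, 4 to 6 against control 9w and 0 to 5 for disease by week. The number of all genes called in these fits is not given either. Without an EMPA or PFD library its group has 1 library left, whose spread is assumed to be like that of the other groups.

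Of member values called in either fit, 1 reversed: Gpx3 in untreated against control 9w in voom, to −0.46 (log2). Values called in neither fit could also change sign, in that comparison Srxn1 to −0.31, Txnrd1 to −0.11 and Gpx1 to −0.15 with the Eif2s3y covariate. In HFpEF against control 5w, Mt2A reversed to −0.74 with the Eif2s3y covariate and −0.67 with only libraries holding Eif2s3y counts, and Mt1 to −0.46 and −0.40; both leave the comparison to HFpEF replicate 2. With the replicate block, HFpEF against control 5w had 0 members and no other count moved by over 1.5 times. Libraries of the same number in different groups had a median correlation of −0.07 (52 pairs), against 0.04 for different numbers (102 pairs), so the numbers do not pair libraries. Groups of 2 or 3 hearts and varying cell markers limit the comparisons, and the Eif2s3y and RT1-CE16 splits limit those whose groups differ in them.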
